A study of Mus musculus with 59 samples.

Results

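The 10 genes described here, of the endoplasmic reticulum (ER) chaperone network and of the unfolded protein response (UPR), were followed in mouse brown adipose tissue (BAT). They were chosen by name, and each has its row among the 55341 genes listed in each of the 3 deposited count tables. The 10 members are Hspa5, Hsp90b1, Dnajb9, Dnajc3, Sdf2l1, Pdia4, Creld2, Manf, Herpud1 and Xbp1. BAT was taken from 59 male C57BL/6J mice aged 8 to 12 weeks, in 15 groups. In the thyroid hormone (TH) experiment, all mice ate propylthiouracil (PTU), a drug that blocks TH synthesis. They were 4 wild-type (WT) PTU controls, 4 WT mice at each of 3, 6, 12 and 24 h after a single injection of T3 and T4, 5 BATKO PTU controls and 5 BATKO mice 24 h after TH. In the temperature experiment, which its table labels as 24 h, 3 CTRL and 4 BATKO mice were kept at 4 °C, and 4 CTRL and 5 BATKO mice at 30 °C. In the diet experiment, labelled as 3.5 days, 4 CTRL and 3 BATKO mice received a high-fat diet (HFD), and 4 CTRL and 2 BATKO mice received chow. The sources used here do not say which gene BATKO mice lack or which promoter drives the deletion. CTRL and WT animals are therefore named as the labels name them, and the deletion was not checked on its target.

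Proteins that enter the ER are folded by chaperones of the lumen, and misfolded ones are sent back to the cytosol for degradation. When unfolded proteins accumulate, the sensors IRE1, PERK and ATF6 start the UPR, which slows protein synthesis and raises the transcription of chaperone genes. In brown adipocytes, which burn lipids to produce heat when they are stimulated by cold, TH is one of the signals that act on gene expression.

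The 10 genes lie on 10 chromosomes of GRCm38, and each is annotated as protein coding. The folding genes are Hspa5 (chr2:34771970-34777547, plus strand), Hsp90b1 (chr10:86690209-86705509, minus strand), Dnajb9 (chr12:44205559-44210326, minus strand), Dnajc3 (chr14:118937976-118981697, plus strand), Sdf2l1 (chr16:17130138-17132383, minus strand), Pdia4 (chr6:47796141-47813430, minus strand) and Creld2 (chr15:88819646-88826683, plus strand). The others are Manf (chr9:106838312-106891979, minus strand), Herpud1 (chr8:94386438-94395377, plus strand) and Xbp1 (chr11:5520659-5525893, plus strand).

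The promoters of several of these genes carry the ER stress response element (ERSE), a sequence bound by ATF6 and XBP1 together with NF-Y. Promoters, taken as 250 bases before and 50 bases after the annotated start, were found in RefSeq (build GRCm38.p6) for 9 of the 10 members, all but Manf. The exact ERSE, searched on both strands as CCAAT and CCACG with 9 free bases between them, was present in the promoters of 4 members, and in 0.119% of 32851 mouse promoters of the same length. The shorter ERSE-II, ATTGG and CCACG with 1 free base between them, was present in that of Herpud1 and in 0.0365% of promoters. The matches are shown because they separate 5 members with a known UPR element close to their start from 4 without an exact match. Capitals mark the fixed letters of each motif, and the sequences are read along the strand of the gene, so that a match on the other strand starts with CGTGG.
Hspa5, ERSE at -65 to -47: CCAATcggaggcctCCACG
Hsp90b1, ERSE at -212 to -194: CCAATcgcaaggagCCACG
Hsp90b1, ERSE on the other strand at -107 to -89: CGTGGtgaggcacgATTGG
Dnajc3, ERSE at -105 to -87: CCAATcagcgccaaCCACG
Creld2, ERSE on the other strand at -126 to -108: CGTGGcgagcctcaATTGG
Herpud1, ERSE-II at -52 to -42: ATTGGgCCACG

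Positions count from the RefSeq start site, with -1 as the last base before it. That site is the gene start given above for Creld2 and Sdf2l1. It lies 120 bases inside the annotated gene for Hspa5, 65 for Hsp90b1 and 258 for Dnajb9, and 9 to 82 bases before it for Herpud1, Xbp1, Dnajc3 and Pdia4, so that the ERSE of Hspa5 lies within the gene as annotated. No exact match to either element was found in the windows of Xbp1, Dnajb9, Sdf2l1 and Pdia4. The core of the UPR element that XBP1 binds, TGACGTGG, was in 0 of the 9 promoters and in 0.676% of all. The DR4 element bound by TH receptors, searched as 2 copies of AGGTCA with 4 free bases between them, was also in 0 of the 9 and in 0.0152% of all. Exact matches this rare would be absent from most sets of 9 promoters. Looser forms of DR4 and sites outside these windows were not searched, so its absence says nothing of TH receptor binding. The 250 bases before the start of Creld2 (chr15:88819396-88819645, plus strand) and of Herpud1 (chr8:94386179-94386428, plus strand) are given with the same capitals, as examples of a promoter with ERSE and of that with ERSE-II.
Creld2: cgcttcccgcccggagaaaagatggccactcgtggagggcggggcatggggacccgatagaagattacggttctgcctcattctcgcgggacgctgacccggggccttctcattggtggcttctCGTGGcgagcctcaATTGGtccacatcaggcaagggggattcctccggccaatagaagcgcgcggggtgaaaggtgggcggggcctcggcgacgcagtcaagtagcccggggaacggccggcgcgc
Herpud1: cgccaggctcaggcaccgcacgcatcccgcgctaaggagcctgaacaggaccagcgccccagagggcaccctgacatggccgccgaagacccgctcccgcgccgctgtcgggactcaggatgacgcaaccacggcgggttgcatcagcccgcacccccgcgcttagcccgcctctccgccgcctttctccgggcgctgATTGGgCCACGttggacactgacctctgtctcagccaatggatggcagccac

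**Figure D1:**
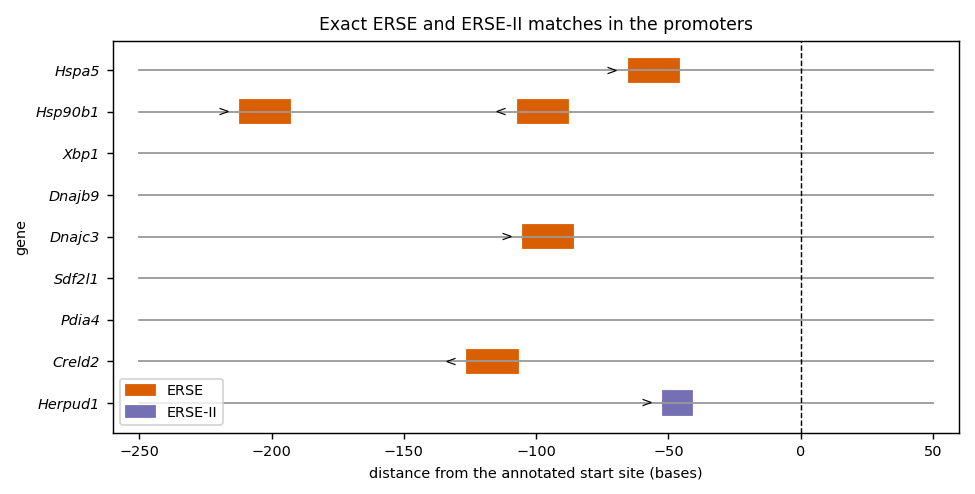
Position of exact ERSE and ERSE-II matches in the 9 promoters, in bases from the annotated start site (dashed line). Boxes are drawn to scale and the arrowhead beside each gives its strand relative to the gene. ERSE matches lie between 212 and 47 bases before the start of 4 genes.

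The count tables hold 7612060 to 18073600 reads per mouse, of which 39.2% to 55.7% came from mitochondrial genes. Levels are given as CPM, the count of a gene relative to all counts of the same mouse on edgeR's standard scale, after TMM normalization over all the mice of an experiment, so that levels of different experiments were normalized separately. The BAT label was checked on 6 adipocyte markers, which include Ucp1 and Adipoq, and all 6 were detected in all 59 mice. Skeletal muscle markers varied between mice of the same group: their summed level exceeded 1000 CPM in 11 mice, among them WT mouse B12 at 6 h, WT mouse B26 at 24 h, 4 of the 9 mice at 30 °C and BATKO mice 8 and 11 at 4 °C. Results that change without these mice are given with both values. A gene was called changed when its adjusted p in edgeR's quasi-likelihood test was under 0.05.

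In WT mice, these genes differed from the PTU controls in both directions within hours of TH. Clock genes differed at these times too, as given below, and the part of the time of day was not tested. Manf rose from 3 h on, Hspa5 and Herpud1 rose and were back near the control level at 24 h, while Xbp1, Dnajb9, Creld2 and Pdia4 fell at some or all time points. Of the 9 members tested, 3 were called at 3 h (2 up and 1 down), where 9.19% of all genes were called (5.1% up and 4.09% down; 1195 genes, and 684 without control B3). At 6 h, 5 members were called (3 up and 2 down), against 23% of all genes (12.1% up and 10.9% down). At 12 h, 7 members were called (3 up and 4 down), against 25.7% of all genes (13.6% up and 12.1% down). At 24 h, 5 members were called (1 up and 4 down), against 32.7% of all genes (17.2% up and 15.5% down). The median log2 fold change of the 9 members was 0.19, 0.03, -0.08 and -0.15 at the successive times, and that of all genes stayed between -0.02 and 0.01. These comparisons share the 4 PTU controls. Between successive times, 0 of 9 members were called by edgeR from 3 to 6 h, against 2.8% of all genes (364, and 103 without mouse B15 at 6 h), with 4 members at an unadjusted p under 0.05 and 0 called by DESeq2. From 12 to 24 h, 3 members fell, against 11.4% of all genes called (5.8% down; 1480 genes, and 889 without mouse B21 at 12 h). In whole tissue, fewer cells of a type and less RNA per cell cannot be told apart.

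**Figure D2:**
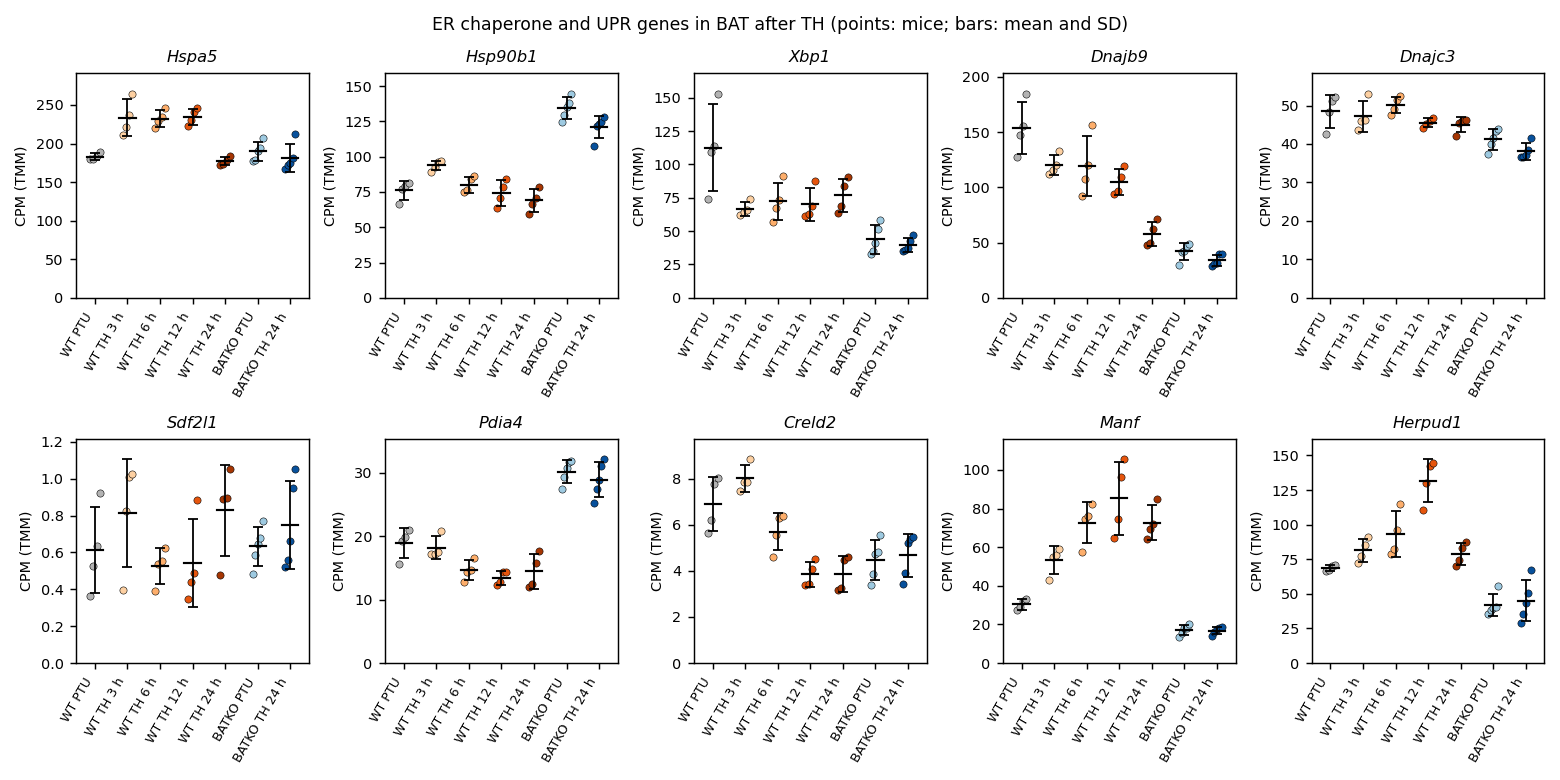
Level of each gene in each mouse of the TH experiment, in CPM (linear axes from 0), with the mean and SD of each group. Manf and Herpud1 lie higher at 12 h than in PTU controls in all 4 WT mice, Dnajb9 lies lower at 24 h in all 4, and the BATKO groups at PTU and 24 h after TH overlap for each gene.

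Manf encodes a secreted ER protein with cytoprotective activity. Its level was 27.3, 29.0, 32.2 and 33.1 CPM in the 4 WT PTU mice. At 3 h it was 42.8, 54.7, 56.1 and 59.2 CPM, and at 12 h it was 64.8, 74.4, 96.2 and 106 CPM. Every TH-treated WT mouse stood above every WT control at these times. Manf was 1.73-fold higher at 3 h (log2 fold change 0.79 ± 0.15 (SE), adjusted p = 0.00199 with edgeR), 2.36-fold at 6 h, 2.82-fold at 12 h (1.50 ± 0.15, adjusted p = 3.38e-07 with edgeR) and 2.39-fold at 24 h. At 24 h its levels of 64.1, 69.6, 72.2 and 85.1 CPM overlapped those at 12 h, and the difference between these times was not called (log2 fold change -0.24 ± 0.15, edgeR adjusted p = 0.319). Part of the Manf gene is shared: Dcaf1, on the opposite strand, covers 146 of its exon bases (4.14%), and 4930524O07Rik covers 166 (4.71%). The strand setting of the counting is not given, so reads in these stretches are uncertain.

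Hspa5 encodes BiP, the main HSP70 chaperone of the ER, which also keeps the UPR sensors inactive. It was 180, 180, 184 and 189 CPM in WT controls and 210, 222, 238 and 265 CPM at 3 h. At 12 h it was 222, 231, 241 and 246 CPM, and at 24 h 172, 174, 178 and 184 CPM. The mice at 3, 6 and 12 h were all above the controls, while those at 24 h overlapped them. The increase was 1.26-fold at 3 h (log2 fold change 0.33 ± 0.08, adjusted p = 0.0108 with edgeR), 1.25-fold at 6 h and 1.29-fold at 12 h. From 12 to 24 h Hspa5 fell by 0.42 ± 0.08 on the log2 scale (adjusted p = 0.00186 with edgeR). When no filter on low counts was applied, the calls at 3 h and 6 h were lost, with the log2 fold change at 0.33 at both times.

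Herpud1, a membrane protein of the ER that assists the degradation of misfolded proteins, rose and then returned. Its level was 66.4, 67.5, 69.9 and 70.5 CPM in WT controls and 111, 130, 142 and 145 CPM at 12 h. At 24 h it was 69.9, 74.2, 83.1 and 87.8 CPM. The 12 h mice stood above both other groups, and the 24 h mice overlapped the controls. Herpud1 was 1.34-fold higher at 6 h (log2 fold change 0.42 ± 0.12, adjusted p = 0.0127 with edgeR) and 1.94-fold at 12 h (0.95 ± 0.12, adjusted p = 4.44e-06 with edgeR). It then fell by 0.76 ± 0.12 from 12 to 24 h (adjusted p = 0.000396 with edgeR). The call at 6 h was lost without mouse B17 of that group (adjusted p = 0.069) and in a fit of all 30 mice of the experiment. The difference between 12 h and 6 h (log2 0.53 ± 0.12, adjusted p = 0.021 with edgeR) was the 1 call among the 9 members between these times, where 2.95% of all genes were called (1.59% up; 384 genes, and 111 without mouse B21 at 12 h). It was lost in the fit of all 30 mice and in that of only the groups compared. It was also lost without mouse B12 of the 6 h group, whose muscle markers were high, and without mouse B21, at a log2 fold change of 0.43 and 0.49.

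Dnajb9 and Dnajc3 encode co-chaperones of the DnaJ family that work with BiP. Dnajb9 was 128, 147, 156 and 185 CPM in WT controls, 94.2, 96.7, 109 and 119 CPM at 12 h, and 47.5, 49.6, 62.6 and 71.2 CPM at 24 h. Each of these groups lay below the one before without overlap. Dnajb9 fell by 0.54 ± 0.15 on the log2 scale at 12 h (adjusted p = 0.0108 with edgeR), and at 24 h it was 2.67-fold lower than in controls (log2 fold change -1.42 ± 0.15, adjusted p = 5.97e-07 with edgeR). The step from 12 to 24 h was also called (-0.87 ± 0.15, adjusted p = 0.00109 with edgeR). At 6 h its log2 fold change was -0.38 ± 0.15 with an adjusted p of 0.0691 with edgeR, which passed 0.05 without control B5 (-0.46) or without mouse B12 of the 6 h group (-0.54). Dnajc3 did not pass the test at any time point in WT mice, with log2 fold changes between -0.11 and 0.03.

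Creld2 encodes a stress-inducible ER protein that assists folding. It was 5.63, 6.21, 7.76 and 8.05 CPM in WT controls, 3.40, 3.43, 4.09 and 4.51 CPM at 12 h, and 3.16, 3.24, 4.46 and 4.61 CPM at 24 h. Both late groups were below all controls. Creld2 was 1.76-fold lower at 12 h (log2 fold change -0.82 ± 0.16, adjusted p = 0.000827 with edgeR) and 1.78-fold lower at 24 h (-0.83 ± 0.16, adjusted p = 0.000495 with edgeR). Pdia4, a disulfide isomerase of the ER lumen, was 15.6, 19.3, 19.9 and 20.9 CPM in controls and 12.2, 12.7, 14.3 and 14.4 CPM at 12 h. These ranges did not overlap, and Pdia4 fell by 0.49 ± 0.13 at 12 h (adjusted p = 0.00695 with edgeR). Its decreases at 6 h (-0.39 ± 0.12, adjusted p = 0.0281 with edgeR) and 24 h (-0.39 ± 0.13, adjusted p = 0.0216 with edgeR) overlapped the controls. The 6 h call was lost on leaving out any of 6 of the 8 mice compared (all but control B5 and treated mouse B13), and when no filter was applied, with log2 fold changes between -0.40 and -0.33. That at 24 h was lost without control B2 or B3, without treated mouse B24 or B27, and in the fit of only the groups compared, with log2 fold changes between -0.37 and -0.31.

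Xbp1 encodes the transcription factor produced when IRE1 splices its mRNA. Counts per gene do not separate spliced from unspliced mRNA, so its level here says nothing of that step. Xbp1 was 73.8, 110, 114 and 153 CPM in WT controls, 62.0, 64.3, 65.8 and 74.1 CPM at 3 h, and 63.7, 68.8, 84.1 and 90.5 CPM at 24 h. The controls were widely spread, and the lowest of them, B5, lay within the range of the treated mice. Xbp1 was 1.72-fold lower at 3 h (log2 fold change -0.78 ± 0.18, adjusted p = 0.00759 with edgeR), and its log2 fold change was -0.66 at 6 h, -0.67 at 12 h and -0.55 ± 0.18 at 24 h (adjusted p = 0.0203 with edgeR at 24 h). Without control B4 the calls at 6 h (-0.47) and 24 h (-0.37) were lost, and the 24 h call was also lost without treated mouse B26 (-0.51) or B27 (-0.47) and in the fit of only the groups compared (adjusted p = 0.0582). Hsp90b1, which encodes the HSP90 paralog of the ER, did not pass the test in the WT time course. Its largest difference was a log2 fold change of 0.28 ± 0.10 at 3 h, where the 4 treated mice (89.4 to 96.9 CPM) lay above the 4 controls (66.6 to 81.7 CPM). A fit of all 30 mice of the experiment called it at 3 h (log2 fold change 0.30, adjusted p = 0.0492).

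Sdf2l1, an ER protein found in complexes with DnaJ co-chaperones, was close to the detection limit. It had between 4 and 16 reads per mouse in the TH experiment, with a mean of 8.97, and did not pass the filter on low counts (a mean normalized count above 10). Fitted with no filter, its log2 fold change 24 h after TH was 0.42 ± 0.41 in WT mice. Its standard errors against the controls were between 0.40 and 0.45 at the 4 times. Changes of this size or smaller could not be called at this depth, and larger ones could be missed too.

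Other measures moved with time after TH. Of 13 circadian clock genes, which follow the hour of the day, 4 rose at 3 h, 7 rose and 4 fell at 6 h, 7 rose and 3 fell at 12 h, and 2 rose at 24 h. Dbp was 2.10 ± 2.47 CPM (SD, n = 4) in WT controls, 53.8 ± 18.4 CPM at 12 h and 5.58 ± 1.17 CPM at 24 h, which is the order also seen for Herpud1. Hours at which BAT was collected are not given in the sources used here, and the part of the time of day in the results at 3, 6 and 12 h was not tested. The summed level of 8 B and plasma cell markers was between 6.51 and 15.1 CPM in WT controls and between 18.7 and 45.4 CPM at 24 h, with Mzb1 at 0 in 44 of the 59 mice. Only 2 of these 8 markers passed the filter, of which 1 rose and 1 fell at 24 h. The summed level of the 6 adipocyte markers was between 14077 and 15790 CPM in WT controls and between 12361 and 19306 CPM at 24 h, where 2 rose and 4 fell. At 12 h, 1 of the adipocyte markers rose and 3 fell, 2 of 6 endothelial markers fell, and 1 of the 2 tested B and plasma cell markers rose. The endothelial sums were 271 to 338 CPM at 12 h, below the 354 to 364 CPM of WT controls. At 3 h 1 adipocyte marker rose, and at 6 h 1 adipocyte marker rose, 1 fell and 1 endothelial marker fell. At 24 h, 1 of 8 macrophage markers rose, 1 of 6 endothelial markers rose and 1 fell, and 1 of 5 fibroblast markers fell. From 12 to 24 h, 2 of 6 skeletal muscle markers, 2 of 6 endothelial markers and 1 of 8 macrophage markers rose, 3 of 6 adipocyte markers fell, and 1 of 5 fibroblast markers rose and 1 fell. Over the same step 3 of the 13 clock genes rose and 7 fell. The part of cell composition was not tested.

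The wider ER network was examined with lists of other genes. Over all genes, 5.1%, 12.1%, 13.6% and 17.2% rose at the successive times. Of 8 UPR sensors and factors, 1, 2, 1 and 3 rose at the successive times and 1, 1, 0 and 1 fell. They include Eif2ak3, which encodes the sensor PERK (log2 fold change 0.85 ± 0.17 at 12 h, adjusted p = 0.000605 with edgeR), and Ddit3, which encodes the factor CHOP (1.13 ± 0.21 at 6 h, adjusted p = 0.000532). Atf4, its upstream regulator in the PERK arm, was called at 24 h (0.65 ± 0.19, adjusted p = 0.0137). Among 21 tested chaperones and folding factors, 2 rose and 4 fell at 24 h, with Uggt1 (0.49 ± 0.10), which checks the folding of glycoproteins, and Fkbp9 (-1.17 ± 0.14), a prolyl isomerase, at the ends of the range of those named. Of 20 tested genes of ER-associated degradation, 1, 1, 2 and 0 rose at the successive times and 0, 4, 7 and 8 fell, while the share of all genes that fell also grew, from 4.09% at 3 h to 10.9%, 12.1% and 15.5%. Derl1, a channel component of this pathway, fell by 0.72 ± 0.11 at 12 h (adjusted p = 3.77e-05 with edgeR). The median log2 fold change of that list at 24 h was -0.23, against 0.01 over all genes. Of 16 tested genes of protein entry into the ER, 1 rose and 5 fell at 24 h, among them the signal peptidase subunit Spcs2 (-0.71 ± 0.11, adjusted p = 6.82e-05 with edgeR). Of 14 genes of disulfide formation, 3 rose and 1 fell at 24 h, while of 6 tested targets of the PERK arm, 0 rose and 1 fell (Asns, asparagine synthetase).

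**Figure D3:**
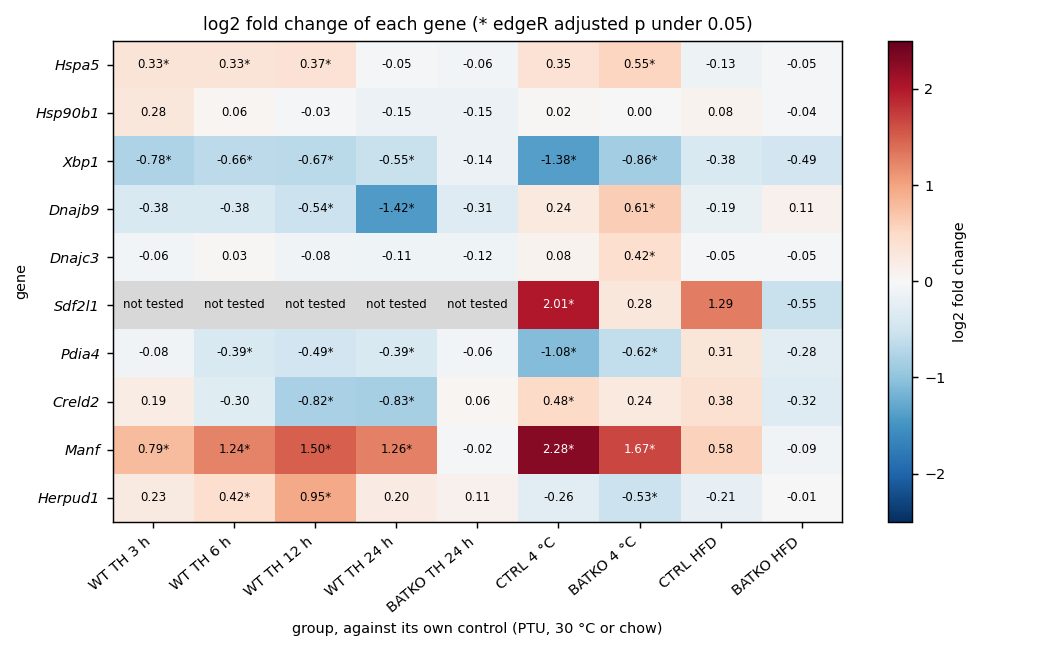
Log2 fold change of each gene in each group against its own control (PTU, 30 °C or chow), from edgeR, with an asterisk where the adjusted p is under 0.05. Grey cells were not tested. Manf is positive after TH in WT mice and at 4 °C in both genotypes, and Xbp1 is negative in the same columns.

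BATKO mice were compared in the same way 24 h after TH. None of the 9 members was called between BATKO TH and BATKO PTU mice, where edgeR called 0% of all genes (0 of 14178, with 673 at an unadjusted p under 0.05, and 0 called by DESeq2). Of the members, Dnajb9 alone had an unadjusted p under 0.05, and DESeq2 called 0 of them. Manf was 13.7, 15.3, 18.1, 18.2 and 20.2 CPM in BATKO PTU mice and 13.9, 15.9, 17.6, 18.4 and 18.5 CPM after TH. The groups overlapped almost entirely (log2 fold change -0.02 ± 0.13). Dnajb9 was 29.9, 41.9, 42.8, 47.2 and 49.2 CPM in BATKO PTU mice and 28.5, 30.7, 31.7, 39.5 and 39.5 CPM after TH (log2 fold change -0.31 ± 0.14, edgeR adjusted p = 0.963). Creld2 had a log2 fold change of 0.06 ± 0.16. The other 6 members had log2 fold changes between -0.15 (Hsp90b1) and 0.11 (Herpud1), and for each of them the 5 treated mice overlapped the 5 controls. Herpud1 was spread more widely after TH (29.0, 35.3, 43.1, 51.0 and 67.6 CPM) than before it (35.3, 38.0, 39.4, 40.7 and 55.9 CPM).

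The difference between the responses of BATKO and WT mice at 24 h was then tested as an interaction term. It was called for 3 of the 9 members (2 up and 1 down), against 12.3% of all genes (5.12% up and 7.15% down). For Manf the BATKO response was lower than the WT response by 1.28 ± 0.20 on the log2 scale (adjusted p = 0.00011 with edgeR). That of Dnajb9 was higher by 1.10 ± 0.22 (adjusted p = 0.00125 with edgeR) and that of Creld2 higher by 0.88 ± 0.24 (adjusted p = 0.014 with edgeR). These are the 3 members with the largest WT changes at 24 h, and each was near 0 or smaller in BATKO mice. Leaving out any 1 mouse changed none of these 3 calls. The baselines differed: mean Dnajb9 in BATKO PTU mice (42.2 CPM) was already below that of WT mice 24 h after TH (57.7 CPM). Creld2 in BATKO PTU mice (4.47 CPM) was nearer to WT mice after TH (3.87 CPM) than to WT PTU mice (6.91 CPM). Manf in BATKO PTU mice (17.1 CPM) was below both WT groups (30.4 and 72.8 CPM). The part of these baselines was not tested. The interaction was not called for Pdia4 (0.32 ± 0.16, edgeR adjusted p = 0.178) or Xbp1 (0.41 ± 0.25, edgeR adjusted p = 0.3), although both were called in WT mice. In the other lists the interaction was called for 1 of 8 sensors and factors, Ddit3 (-0.87 ± 0.25), and for 3 of 21 chaperones, all higher, among them Cdnf, the paralog of Manf (1.08 ± 0.31), and Fkbp9 (1.02 ± 0.17). Of 14 genes of disulfide formation 1 was higher, Pdia6 (0.52 ± 0.14), and 1 lower, Ero1l (-0.64 ± 0.15), an ER oxidase. It was also called, with a higher response in BATKO mice, for 3 of 20 genes of ER-associated degradation and 3 of 17 of protein entry, and for 0 of 7 PERK arm targets. Of the cell type markers, 4 of 6 adipocyte markers were called, all higher, with a list median of 0.79 against -0.02 over all genes, and 1 of 2 tested B and plasma cell markers was lower. Their part in the interaction was not tested.

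**Figure D4:**
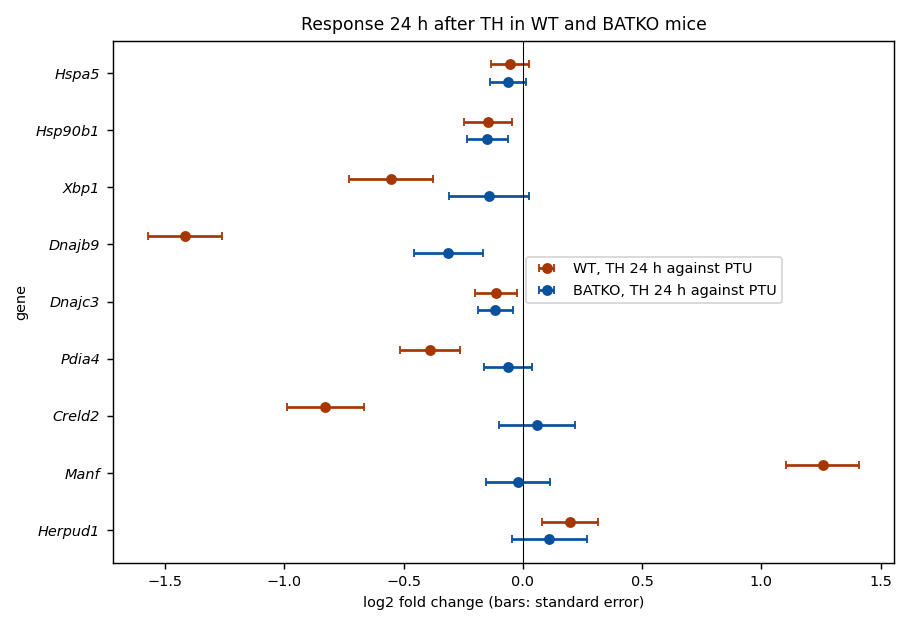
Log2 fold change 24 h after TH in WT (4 against 4) and BATKO (5 against 5) mice, with standard errors, for the 9 genes tested. Manf, Dnajb9 and Creld2 lie apart in the WT mice, at 1.26, -1.42 and -0.83, and near 0 or closer to it in BATKO mice.

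BATKO and WT groups also differed before TH. In PTU mice, 8 of the 9 members were called (2 up and 6 down), where 70.3% of all genes were called (36.4% up and 33.9% down). Dnajb9 was 3.65-fold lower in BATKO PTU mice (log2 fold change -1.87 ± 0.15), Xbp1 2.58-fold lower and Manf 1.78-fold lower, while Hsp90b1 was 1.76-fold higher and Pdia4 1.59-fold higher. Hspa5 was the 1 member not called (0.05 ± 0.08). Hsp90b1 was 124, 130, 135, 138 and 145 CPM in BATKO PTU mice, above the 66.6 to 81.7 CPM of WT controls, and Xbp1 was 32.6, 35.1, 41.2, 51.6 and 58.3 CPM, below the 73.8 to 153 CPM of WT controls. Neither pair of groups overlapped. Hsp90b1 shares 415 of its exon bases (10.3%) with 1810014B01Rik, a pseudogene on the opposite strand, so that its level is uncertain to that extent. When no filter was applied the call of Dnajc3 was lost both at PTU and after TH. At 24 h after TH, 7 of 9 members were called (2 up and 5 down), against 69.7% of all genes (34.7% up and 35% down), with Manf 4.32-fold lower in BATKO mice. There 4 of 6 muscle markers and 4 of 8 macrophage markers were lower, 4 of 6 endothelial markers were higher, 2 of 5 fibroblast markers were higher and 3 lower, and 2 of 6 adipocyte markers were higher and 2 lower. Of the 2 tested B and plasma cell markers 1 was higher and 1 lower. At PTU 12 of 13 clock genes were called too, with Dbp at 60.6 ± 14.0 CPM (SD, n = 5) in BATKO PTU mice and 2.10 ± 2.47 CPM (SD, n = 4) in WT PTU mice. At 24 h after TH, 9 of the 13 clock genes were higher and 4 lower in BATKO mice. Cell type markers moved with the genotype as well. Of the 6 adipocyte markers 1 was higher and 5 were lower in BATKO PTU mice, with sums of 9866 to 11847 CPM against 14077 to 15790 CPM in WT PTU mice. Of 6 endothelial markers 4 were higher and 1 lower (sums of 418 to 482 CPM against 354 to 364 CPM), and neither pair of sums overlapped. Of 8 macrophage markers 2 were lower, and of 5 fibroblast markers 1 was higher and 2 were lower. Depth differed too, at 13594000 to 18073600 reads in BATKO and 7805940 to 14615500 in WT mice. The genotype cannot be told apart from these differences in this experiment, and the interaction, which compares responses within each genotype, rests on the same groups.

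At 4 °C the members again moved in both directions, with Manf and Xbp1 at the ends. In CTRL mice 5 of 10 members were called (3 up and 2 down), against 49.1% of all genes (26.5% up and 22.6% down), and in BATKO mice 7 of 10 (4 up and 3 down), against 40.3% (21.4% up and 18.9% down). One of the 5, Sdf2l1, passed the filter on low counts only through the CTRL mice at 4 °C, where it is high. Its mean count without that group was 8.85, so that it had to differ if it was tested. Without Sdf2l1 the counts are 4 of 9 in CTRL and 7 of 9 in BATKO mice, and the median log2 fold change over these 9 genes was 0.08 in CTRL and 0.24 in BATKO mice, against -0.01 and -0.02 over all genes.

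Manf was 18.8, 21.8, 21.8 and 25.9 CPM in CTRL mice at 30 °C and 93.8, 96.5 and 130 CPM at 4 °C. In BATKO mice it was 17.9, 22.3, 22.6, 25.7 and 27.97 CPM at 30 °C and 61.4, 75.1, 75.8 and 85.5 CPM at 4 °C. All 7 cold mice were above all 9 mice at 30 °C, and the BATKO mice at 4 °C lay below the CTRL mice at 4 °C without overlap. Manf was 4.85-fold higher in the cold in CTRL mice (log2 fold change 2.28 ± 0.17, adjusted p = 6.95e-08 with edgeR) and 3.19-fold in BATKO mice (1.67 ± 0.15, adjusted p = 8.69e-07 with edgeR). The difference between genotypes at 4 °C was not called by edgeR (-0.52 ± 0.17, adjusted p = 0.113). DESeq2, the alternative, called it (-0.55, adjusted p = 0.0375).

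Xbp1 moved the other way. It was 133, 134, 154 and 155 CPM in CTRL mice at 30 °C and 53.8, 55.3 and 56.1 CPM at 4 °C. In BATKO mice it was 135, 162, 162, 164 and 174 CPM at 30 °C and 74.3, 74.8, 99.0 and 102 CPM at 4 °C. Cold mice of both genotypes were below all mice at 30 °C. Xbp1 was 2.61-fold lower in CTRL mice (log2 fold change -1.38 ± 0.14, adjusted p = 1.32e-06 with edgeR) and 1.82-fold lower in BATKO mice (-0.86 ± 0.12, adjusted p = 5.12e-05 with edgeR). At 4 °C it was 1.59-fold higher in BATKO than in CTRL mice (0.67 ± 0.14, adjusted p = 0.0237 with edgeR), the 1 member called there of the 9 other than Sdf2l1, against 2.16% of all genes (0.957% up). These 286 genes became 53 without CTRL mouse 2 and 565 without CTRL mouse 5, both at 4 °C. That call was lost without BATKO mouse 8 or 12, without CTRL mouse 1 or 2 at 4 °C, without the mice high in muscle markers, and in the fit of only the groups compared, with log2 fold changes between 0.57 and 0.67.

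Pdia4 followed Xbp1 in both genotypes. It was 31.0, 31.7, 37.8 and 49.9 CPM in CTRL mice at 30 °C and 15.4, 17.9 and 20.0 CPM at 4 °C. These ranges did not overlap, and Pdia4 was 2.12-fold lower in the cold (log2 fold change -1.08 ± 0.17, adjusted p = 9.29e-05 with edgeR). In BATKO mice it was 1.54-fold lower (-0.62 ± 0.15, adjusted p = 0.00376 with edgeR), a call that was lost without the mice high in muscle markers (-0.56). Herpud1 fell in BATKO mice by 0.53 ± 0.11 on the log2 scale (adjusted p = 0.00146 with edgeR), from 115 to 156 CPM at 30 °C to 85.9 to 111 CPM at 4 °C, and its log2 fold change in CTRL mice was -0.26 ± 0.13.

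The chaperone Hspa5 was 130, 133, 134, 139 and 145 CPM in BATKO mice at 30 °C and 177, 199, 209 and 209 CPM at 4 °C. The groups did not overlap, and the increase was 1.46-fold (log2 fold change 0.55 ± 0.14, adjusted p = 0.00585 with edgeR). In CTRL mice it was 123, 151, 162 and 200 CPM at 30 °C and 168, 188 and 254 CPM at 4 °C, with overlapping groups and no call (0.35 ± 0.16, edgeR adjusted p = 0.0803). It was called in CTRL mice without mouse 22 at 30 °C (0.47) or without mouse 1 at 4 °C (0.44). Dnajb9 rose in BATKO mice by 0.61 ± 0.17 (adjusted p = 0.00845 with edgeR), as did Dnajc3 by 0.42 ± 0.15 (adjusted p = 0.0363 with edgeR). The call of Dnajc3 was lost on leaving out BATKO mouse 7, 8 or 11 at 4 °C, or 14, 16 or 17 at 30 °C, with no filter, and in the fit of only the groups compared, with log2 fold changes between 0.35 and 0.43. Without the mice high in muscle markers, which leaves 3 and 2 BATKO mice at 30 and 4 °C, the calls of Hspa5 (0.51), Dnajb9 (0.43) and Dnajc3 (0.22) were all lost.

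Creld2 was 5.90, 6.23, 7.44 and 10.01 CPM in CTRL mice at 30 °C and 9.66, 10.6 and 10.6 CPM at 4 °C. The highest mouse at 30 °C lay among the cold mice, and the increase was 1.39-fold (log2 fold change 0.48 ± 0.18, adjusted p = 0.0365 with edgeR). This call was lost without CTRL mouse 1 or 2 at 4 °C, or without 19, 20 or 21 at 30 °C, with no filter, in the fit of only the groups compared (between 0.38 and 0.48), and without the mice high in muscle markers (0.35). Sdf2l1 was between 0.29 and 0.64 CPM at 30 °C and between 1.92 and 2.33 CPM at 4 °C in CTRL mice, a 4.02-fold difference. In BATKO mice it was between 0.52 and 1.48 CPM at 30 °C and between 0.80 and 1.41 CPM at 4 °C. Hsp90b1 had a log2 fold change of 0.02 ± 0.17 in CTRL mice and 0.00 ± 0.15 in BATKO mice.

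The cold response itself did not differ by genotype for any of the 9 members other than Sdf2l1 with edgeR, against 1.12% of all genes called. This share rests on single mice: the 149 genes called became 5 without CTRL mouse 1 and 907 without CTRL mouse 5, both at 4 °C. Manf and Xbp1 had an unadjusted p under 0.05, and DESeq2 called 0. The lowest adjusted p among the 9 was 0.14, for Xbp1. The test of Sdf2l1 is not given, since this gene was tested only because of its level in CTRL mice at 4 °C. At 30 °C, 0 of the 9 members other than Sdf2l1 were called between genotypes, against 0.00754% of all genes, and 0 had an unadjusted p under 0.05 or were called by DESeq2. A p that misses the threshold does not show that the genotypes respond alike.

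**Figure D5:**
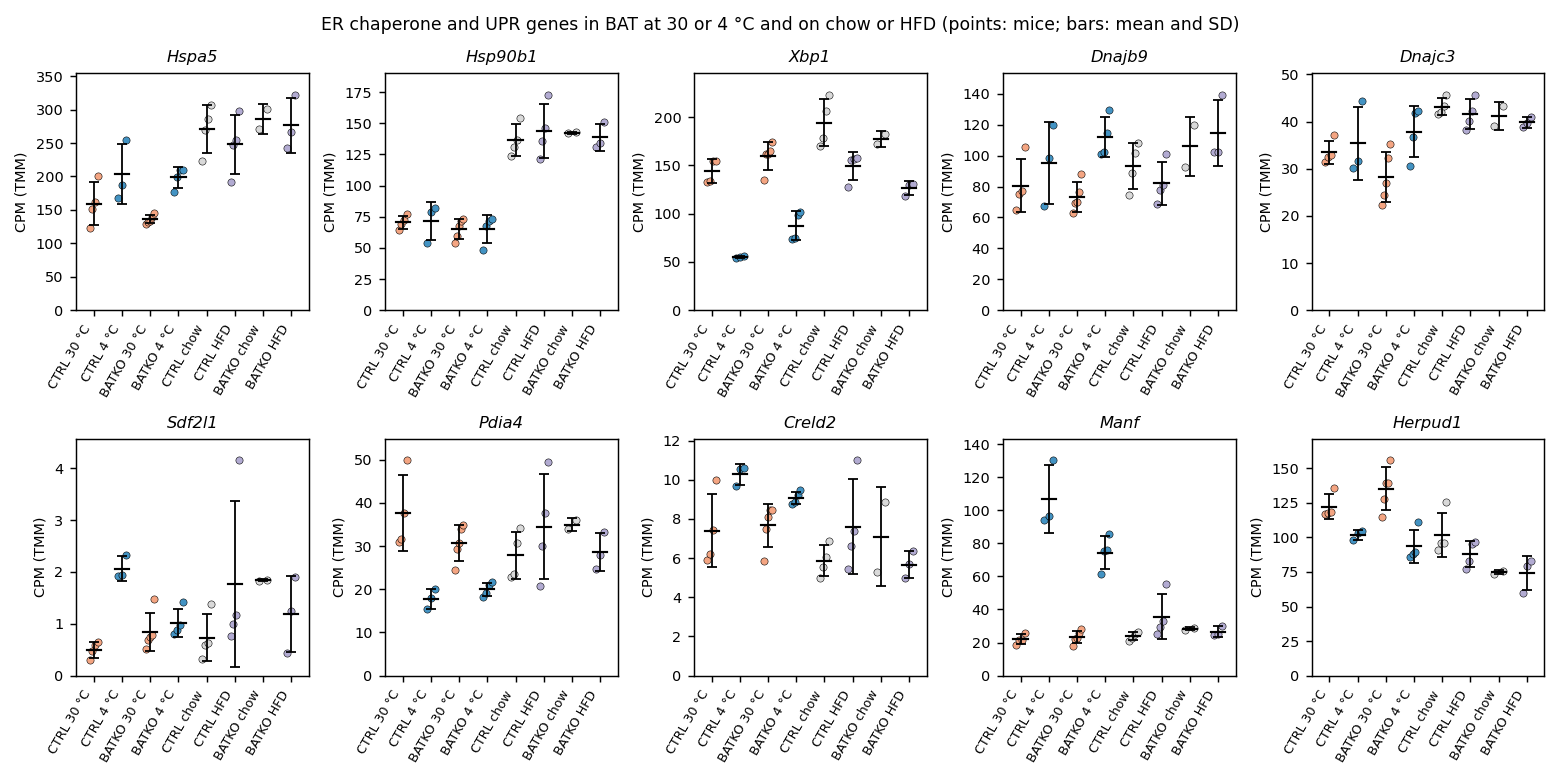
Level of each gene in each mouse of the temperature and diet experiments, in CPM (linear axes from 0, each experiment normalized separately), with the mean and SD of each group. Manf is higher and Xbp1 lower in all 7 mice at 4 °C than in all 9 mice at 30 °C, and within the diet experiment 1 CTRL mouse on HFD, mouse 10, is highest for Sdf2l1 and Manf.

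Other markers moved with temperature. The summed level of the 6 adipocyte markers was between 5802 and 7195 CPM in CTRL mice at 30 °C and between 23982 and 27747 CPM at 4 °C, where 5 of the 6 rose and 1 fell. In BATKO mice 5 rose and 0 fell, from sums of 5774 to 7007 CPM at 30 °C to 16538 to 24970 CPM at 4 °C. Of 5 fibroblast markers 3 fell in CTRL mice, with sums of 396 to 547 CPM at 30 °C and 276 to 292 CPM at 4 °C, which do not overlap, and 1 fell in BATKO mice, where the sums overlapped. Of 8 macrophage markers 1 fell in CTRL and 2 rose in BATKO mice. Of 6 endothelial markers 2 rose and 1 fell in CTRL mice, and 1 rose and 2 fell in BATKO mice. None of the 3 tested B and plasma cell markers and none of the 6 muscle markers was called by edgeR in either genotype. Of 12 tested clock genes, 2 rose and 6 fell in CTRL mice, and 2 rose and 5 fell in BATKO mice. Between genotypes at 4 °C, 1 adipocyte and 1 endothelial marker were lower and 1 clock gene was higher in BATKO mice. The sums of the fibroblast markers (276 to 292 CPM in CTRL and 298 to 584 CPM in BATKO mice) and of the macrophage markers (71.0 to 82.1 CPM and 82.6 to 118 CPM) did not overlap there, although none of these markers was called by edgeR. The part of all these markers in the results was not tested. Muscle markers reached 4357 CPM in CTRL and 7710 CPM in BATKO mice at 30 °C, and 581.5 and 1568 CPM at 4 °C. Without the mice high in these markers, the log2 fold changes of Manf and Xbp1 kept their direction and their call in both genotypes.

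Of 21 other chaperones tested, 11 rose and 3 fell in CTRL mice in the cold, where 26.5% of all genes rose and 22.6% fell. In BATKO mice 8 rose and 2 fell, where 21.4% of all genes rose and 18.9% fell. The list's median log2 fold change was 0.62 in CTRL and 0.10 in BATKO mice, against -0.01 and -0.02 over all genes. Dnajb11, a co-chaperone of BiP, rose by 1.07 ± 0.14 in CTRL and 0.76 ± 0.12 in BATKO mice (adjusted p = 9.69e-06 and 0.000123 with edgeR). Fkbp2, a prolyl isomerase, rose by 1.32 ± 0.16 in CTRL mice, whereas Cdnf was lower (-1.51 ± 0.27 in CTRL mice, adjusted p = 0.000201 with edgeR). Of 20 tested genes of ER-associated degradation, 7 rose and 2 fell in CTRL and 6 rose and 2 fell in BATKO mice, and Derl1 rose in CTRL mice by 2.23 ± 0.22 (adjusted p = 6.88e-07 with edgeR), against its fall 12 h after TH. Of the sensors and factors, 2 of 8 rose in CTRL mice, Atf6 (0.74 ± 0.14) and Mbtps1 (0.53 ± 0.15), which encodes a protease that activates ATF6, while 1 rose and 1 fell in BATKO mice. Of 7 tested targets of the PERK arm, 0 rose and 3 fell in CTRL mice, among them Atf3 (-2.19 ± 0.69) and Ppp1r15a (-1.18 ± 0.32). In BATKO mice Asns rose (0.53 ± 0.20, adjusted p = 0.0418 with edgeR) and 2 fell, Atf3 (-2.01 ± 0.60) and Ppp1r15a (-1.10 ± 0.28). Disulfide formation had 4 genes up and 2 down of 14 in CTRL mice, and 5 up and 1 down in BATKO mice. Protein entry into the ER had 4 up and 3 down of 16 in CTRL mice, and 6 up and 1 down in BATKO mice.

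On HFD none of the 9 members other than Sdf2l1 was called by edgeR in any of 5 comparisons. Sdf2l1 passed the filter on low counts only with CTRL mouse 10 on HFD, where it is high, and its tests are not given. The share of all genes called was 3.94% in CTRL HFD against chow, 0.0696% in BATKO HFD against chow, and 0% in both comparisons between genotypes and in the interaction. The 509 genes called in CTRL mice became 166 without mouse 2 and 716 without mouse 3, both on chow. The 9 genes called in BATKO mice became 0 without mouse 5 on chow, and the 0 genes between genotypes on HFD became 10 without CTRL mouse 10. With DESeq2 the numbers of genes called were 872 and 226 for HFD against chow in CTRL and BATKO mice, 9 and 33 between genotypes on HFD and chow, and 0 for the interaction. At an unadjusted p under 0.05 there were 2 of these 9 members in CTRL HFD against chow, 1 in each of BATKO HFD against chow, BATKO against CTRL on HFD and BATKO against CTRL on chow, and 0 in the interaction. DESeq2 called 1 member in each comparison of HFD with chow, Xbp1, and 0 in the others. Xbp1 was 170, 178, 206 and 223 CPM in CTRL mice on chow and 127, 155, 157 and 158 CPM on HFD. The groups did not overlap (log2 fold change -0.38 ± 0.11, edgeR adjusted p = 0.066). In BATKO mice it was 172 and 183 CPM on chow and 118, 130 and 131 CPM on HFD, also without overlap (-0.49 ± 0.14, edgeR adjusted p = 0.15). Manf was 21.2, 22.8, 25.1 and 26.7 CPM in CTRL mice on chow and 24.9, 29.6, 32.9 and 55.5 CPM on HFD (0.58 ± 0.20, edgeR adjusted p = 0.107). It was called without mouse 7 on HFD (adjusted p = 0.046) and when no filter was applied. Mouse 10, with 55.5 CPM, also had 37 reads of Sdf2l1, against 6 to 9 in the others of its group. The summed level of 8 macrophage markers was 282 CPM in this mouse and 127 to 139 CPM in the others of its group, all above the 86.2 to 101 CPM of CTRL mice on chow. In CTRL mice on HFD 1 macrophage, 1 fibroblast and 1 adipocyte marker rose. In BATKO mice the macrophage sums were 189 to 245 CPM on chow and 103 to 186 CPM on HFD, and no marker was called by edgeR. The part of these markers was not tested. Among other genes of the network in CTRL mice on HFD, 1 of 21 chaperones rose and 1 fell, Cdnf (-1.21 ± 0.29). Of 7 PERK arm targets 2 fell, Atf3 (-2.45 ± 0.29) and Ppp1r15a (-1.04 ± 0.15), and none of the sensors, disulfide, degradation and entry genes was called by edgeR.

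Between genes, levels were compared per kilobase of exons, with all annotated exons of a gene joined. Which transcripts are expressed was not examined, so the order depends on this length. Before division by length, mean Hspa5 (183 CPM) was above mean Dnajb9 (154 CPM) in WT PTU mice. In WT PTU mice Dnajb9 stood first at 60.4 ± 9.32 CPM per kb (SD, n = 4), above Hspa5 (43.3 ± 0.96) without overlap. Xbp1 followed at 34.7 ± 9.98 and overlapped both Hspa5 and Herpud1 (29.4 ± 0.84), which was above Hsp90b1 (18.9 ± 1.66) without overlap. Dnajc3, Manf, Pdia4 and Creld2 were between 5.06 and 9.44, and Sdf2l1 was at 0.55. In CTRL mice at 30 °C, Herpud1 (52.4 ± 3.89) came first, above Xbp1 (44.3 ± 3.82) without overlap, and in CTRL mice on chow Hspa5 (64.1 ± 8.39) and Xbp1 (59.8 ± 7.61) came first and overlapped. Summed over the 10 genes, the level was 616 to 737 CPM in WT PTU mice and 564 to 621 CPM 24 h after TH, which overlap, and at 4 °C (634 to 776 CPM in CTRL mice) it overlapped that at 30 °C (652 to 738 CPM).

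Within groups the members did not vary as 1 block. Over the 59 mice, after centring each gene on its group mean, the highest Pearson r between 2 of the 9 members passing the filter in all experiments was 0.70, for Hspa5 and Dnajb9, and the lowest was -0.45, for Dnajb9 and Herpud1. Each gene was also set against the mean of the other 8. Hsp90b1 was closest (r = 0.60) and Herpud1 was the 1 member below 0 (r = -0.27). Of 12097 genes ranked, which include the 9, the 5 others most like the mean of the 9 were Pdia3 (r = 0.69), a disulfide isomerase of the ER, Sdcbp (0.69), Crnkl1 (0.62), Adam10 (0.60) and Cept1 (0.60). Their order rests on few mice. Without the 2 mice furthest from the median of that mean, Cept1 was at 0.63, Pdia3 at 0.60 and Sdcbp at 0.59. By Spearman correlation over all 59 mice, Cept1 (0.65) was also above Pdia3 (0.59). The values of all genes of 1 mouse come from 1 library and 1 tissue sample, and these correlations have no test.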

How the data were processed

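The 10 members, and the lists of other genes and markers, were chosen with earlier results of these data known, and all 10 are named. From the lists, up to 2 called genes per direction with the largest changes and a mean normalized count above 50 could be named, and clock genes were described as a group. BAT RNA was extracted with Trizol and sequenced from total RNA libraries. The authors aligned reads with Bowtie (the submitters' processing notes name Bowtie2 2.3.2.2 and DESeq2) to GRCm38, removed low-quality alignments, and deposited raw counts per gene from htseq-count, without normalization. The annotation and strand setting of that counting are not given in the sources used here. Of the 55341 symbols, 55327 were found in GENCODE vM21 (GRCm38).

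Counts were tested in R 4.3.3 with edgeR 4.0.16 (quasi-likelihood, TMM, genes with a mean normalized count above 10, Benjamini-Hochberg adjustment over all genes, threshold 0.05, no threshold on fold change). WT times were fitted on the 20 WT mice, BATKO comparisons and the interaction on all 30 mice of the TH experiment, and temperature and diet each on all their mice. Standard errors were derived from the F statistic. Alternatives were DESeq2 1.42.0, its size factors (RLE), no filter, a mean above 50, only the groups compared, all 30 mice for the WT times, and each mouse left out in turn. The fits without 11 mice whose muscle markers summed to over 1000 CPM were chosen after seeing the data. The calls were tested on simulated data. Nothing in the labels says that mice of a group came from separate litters or days, and p-values measure the spread between these mice. Libraries were checked for copies over 91 within-group pairs: chi-square divided by its degrees of freedom was at least 6.81, far above sampling noise.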

Additional observations from a re-analysis of the deposited data

Results flagged for a closer look

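The 24 h response differed between BATKO and WT mice by the interaction term of edgeR for 3 genes: by -1.28 on the log2 scale for Manf, by 1.10 for Dnajb9 and by 0.88 for Creld2. The same term was called for 12.3% of all genes. It rests on groups that already differed before TH, in most genes and in depth, and the genotype cannot be told apart from these differences.

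In 9 of 120 groups of 4 or 5 mice and genes, 1 mouse stood apart from the others of its group by the size of its gap relative to the whole range, where chance gives about 6. Herpud1 was flagged most often. BATKO PTU mouse 4 was higher (gap of 0.739 of the range), as were CTRL mouse 19 at 30 °C (0.957), BATKO mouse 11 at 4 °C (0.869) and CTRL mouse 1 on chow (0.851). Sdf2l1 was higher in BATKO mouse 16 at 30 °C (0.727, at 17 reads) and in CTRL mouse 10 on HFD (0.882, at 37 reads). Pdia4 was higher in WT mouse B7 at 3 h (0.912). Xbp1 was lower in CTRL mouse 9 on HFD (0.905), and Dnajc3 lower in WT mouse B27 at 24 h (0.834). BATKO mouse 11 is among the mice high in muscle markers, and the part of these markers in its level of Herpud1 was not tested.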

How the results depend on the processing

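No called value changed sign under any alternative run. The number of members called moved by more than 1.5 times as follows. With no filter on low counts it was 3 in place of 5 at 6 h after TH in WT mice, and 1 in place of 0 in CTRL HFD against chow. With only the groups compared it was 3 in place of 5 at 24 h, 0 in place of 1 for 12 h against 6 h, and 0 in place of 1 for BATKO against CTRL at 4 °C. With all 30 mice it was 0 for 12 h against 6 h. With DESeq2 it was 2 for BATKO against CTRL at 4 °C, 1 in CTRL HFD against chow and 1 in BATKO HFD against chow. Without the mice high in muscle markers it was 0 for 12 h against 6 h, 3 in place of 7 in BATKO mice at 4 °C, and 0 for BATKO against CTRL at 4 °C. These last fits have fewer mice, and otherwise the cause was not tested. With each mouse left out in turn, the number of members called ranged from 3 to 6 at 6 h, from 3 to 5 at 24 h, from 0 to 1 for 12 h against 6 h, from 4 to 6 in CTRL mice at 4 °C (Sdf2l1 included), from 0 to 1 for BATKO against CTRL at 4 °C, and from 0 to 1 in CTRL HFD against chow. RLE size factors and a mean count above 50 moved none of the 21 counts beyond 1.5 times.

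The number of all genes called, the background of these counts, moved by more than 1.5 times in several comparisons. From 3 to 6 h after TH it was 364, and 549 with DESeq2, 637 with no filter, 190 with all 30 mice and 192 without the mice high in muscle markers. For 12 h against 6 h it was 384, and 615 with DESeq2, 606 with no filter and 101 without these mice. For 24 h against 12 h it was 1480, and 790 with only the groups compared and 967 without these mice. In BATKO mice in the cold it was 5340, and 2216 without these mice. For BATKO against CTRL it was 286 at 4 °C (650 with DESeq2, 61 with only the groups compared, 97 without these mice), 1 at 30 °C (8 with DESeq2, 0 without these mice), and 149 for the cold interaction (656 with DESeq2, 6 without these mice). On HFD it was 509 in CTRL mice (872 with DESeq2, 1280 with no filter, 321 with only the groups compared) and 9 in BATKO mice (226 with DESeq2, 336 with no filter, 66 with only the groups compared, 4 without these mice). Between genotypes it was 0 on HFD (9 with DESeq2, 59 with no filter), 0 on chow (33 with DESeq2, 290 with no filter, 114 with only the groups compared) and 0 for the interaction (216 with no filter). The cause was not tested.

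No paired analysis was possible because the groups compared share no mouse number, and a number that recurs between groups names different mice. Depth limits Sdf2l1 most, the member with the fewest reads.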
